A study of Mus musculus with 13 samples.

Results

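Plasma cell tumours that carried both a MYC transgene and an activating Nras allele were compared with normal plasma cells of the mouse bone marrow. The comparison uses 8 of the 13 RNA sequencing libraries of the series, chosen by their labels: 3 libraries of group WT, and 5 of arm VQ from 3 transplanted tumour lines, D1 (2 libraries), D4 (1) and D5 (2). WT mice are wild-type, and VQ tumours have the genotype V{kappa}\*MYC with Nras LSL Q61R/+ and IgG1-Cre. The other 5 libraries, 3 of group V (V{kappa}\*MYC with IgG1-Cre and no Nras allele) and 2 of recipients of the transplantable line tVk12653, entered the fit and serve as a second reference. All groups share the C57/BL6 background, and each library was made from 50000 sorted marrow cells that carried CD138 and CD45.2 and lacked B220. The labels give no age, no sex and no treatment.

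Several features limit these groups as a model. The transgene holds human MYC behind an immunoglobulin kappa promoter and becomes active in germinal centre B cells. IgG1-Cre acts in B cells that switch towards IgG1, and there it removes the stop cassette (LSL) in front of mutant Nras. Each line is a tumour that grew out and was passed to recipients, whereas WT and V cells came from mice that are not labelled as recipients. Genotype, outgrowth and transplantation therefore cannot be told apart. The line was taken as the unit of VQ, with the counts of its recipients summed. Nothing in the labels says whether the WT libraries came from separate mice. The p-values therefore measure the spread between these lines and libraries, pooled with that of the V and tVk12653 libraries. The recipients of tVk12653, a single line, were kept separate in that fit.

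Plasma cells are antibody-secreting cells that arise from B cells, silence much of the B cell programme and stop dividing. MYC is a transcription factor that raises ribosome production, metabolism and cell growth, and normal plasma cells keep it low. NRAS is a small GTPase that signals through the RAF, MEK and ERK kinases, and its activated forms, like raised MYC, are known from human multiple myeloma, the cancer of plasma cells.

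Total counts were 2575570 to 3640249 in WT and 3401667 to 8512281 in VQ libraries, so that 3 counts equal 0.325 to 1.11 CPM (counts relative to the library total, scaled by TMM). Spearman correlations were 0.955 to 0.975 within WT, 0.983 within D1, 0.987 within D5, 0.827 to 0.901 between VQ lines and 0.738 to 0.819 between VQ and WT. Defining plasma cell markers were present in every library, with Xbp1, the secretory transcription factor, at 1976 to 3325 CPM in WT and 1329.8 to 3379.8 CPM in VQ, and Sdc1, which encodes CD138, at 680.4 to 1010.2 and 364 to 1422 CPM. The 8 listed plasma cell markers summed to 38814 to 72021 CPM in WT but 5566 to 8376 CPM in VQ, where Jchain, given below, fell. Ptprc, which encodes the CD45 protein used in the sort, lay at 546, 799 and 605 CPM in WT and 272 and 248 CPM in D1. In line D4 it lay at only 1.68 CPM and in line D5 at 1.85 and 6.61 CPM, against the label of CD45.2-positive cells.

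Markers of other marrow cells were higher in WT than in VQ for most lists. Summed neutrophil markers reached 3775 to 10508 CPM in WT (highest in replicate 2) and 97.8 to 1411 CPM in VQ (highest in D1 replicate 1). Summed B cell markers reached 623 to 1017 CPM in WT, with each of 15 genes detected, and 73.5 to 219 CPM in VQ, with 7 to 10 of them at 0. T and NK cell markers went from 76.3 to 144 CPM in WT to 1.82 to 8.13 CPM in VQ, with 5 to 12 of 16 genes at 0. Monocyte markers (107 to 415 against 17.5 to 109 CPM) overlapped at the edge. Erythroid markers (254 to 1329 against 89.6 to 246 CPM) were lower in VQ. So were basophil, eosinophil and mast cell markers (526 to 651 against 19.3 to 265 CPM) and dendritic cell markers (829.5 to 949 against 317 to 461 CPM). Single genes made up much of some VQ sums, Cd79b at 66.1 to 208 CPM among B cell and Tcf4 at 195 to 359 CPM among dendritic cell markers. The same was true of WT. There Prg2 lay at 363, 375 and 552 CPM among basophil, eosinophil and mast cell markers, and Tcf4 at 559, 418 and 551 CPM. In line D5 Il5ra lay at 263 and 207 CPM, where the basophil, eosinophil and mast cell sums were 265 and 209.5 CPM. In such bulk samples, fewer cells of a type and less RNA per cell cannot be told apart, and the part of these cells in the results below was not tested. By edgeR's test 17 of 19 neutrophil, 11 of 13 monocyte and 7 of 9 T and NK cell markers fell. So did 12 of 13 B cell, 12 of 13 erythroid, 3 of 4 megakaryocyte and 5 of 7 basophil, eosinophil and mast cell markers. The same held for 6 of 9 dendritic, 2 of 6 stromal and 2 of 8 plasma cell markers. 1 dendritic cell marker rose, and in the other 9 lists edgeR called 0 of 92 genes higher (2 at an unadjusted p under 0.05, and 1 by DESeq2).

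**Figure D1:**
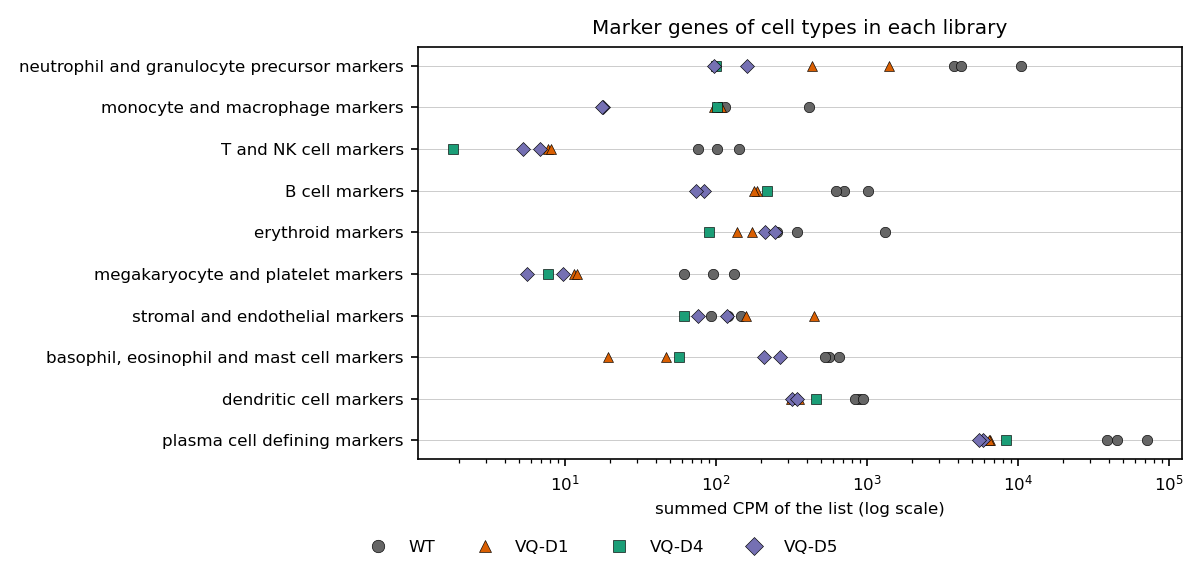
Summed CPM (log scale) of 10 marker gene lists, 1 row per list and 1 point per library, for the 3 WT and the 5 VQ libraries. Neutrophil, B, T and NK cell markers lie lower in every VQ library than in every WT library, and stromal markers overlap, at 93.1 to 147 CPM in WT and 61.6 to 444 CPM in VQ.

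Of 11933 genes tested, 3872 (32.4%) differed between VQ and WT at an adjusted p under 0.05, 2065 higher in VQ (17.3%) and 1807 lower (15.1%). A gene was further called changed in all 3 lines when every line lay beyond every WT library and at least 2-fold from the WT mean. For genes so called, a lack of overlap between lines and WT follows from the rule and is given as description only. By that rule 761 genes were higher (6.38%) and 1183 lower (9.91%), which is 36.9% of the genes called higher and 65.5% of those called lower. In every line at least 4-fold, 141 genes were higher and 705 lower. Changes held by all lines were thus more often falls, while the calls on the mean leaned to rises. Only 1140 genes were called higher without WT replicate 3 and 1358 without WT replicate 1. In a fit of VQ lines and WT alone 1064 genes were called higher and 976 lower. With relative log expression factors in place of TMM factors the calls were 1831 higher and 1967 lower, 48.2% against 53.3% higher. The median log2 fold change over all genes was 0.08 (0.07 where genes with no count in an arm are set to their lower bound), and list medians are given on that scale. Counts in each gene list are to be read against 17.3% higher and 15.1% lower over all genes, and 6.38% and 9.91% in all 3 lines.

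The engineered genes were read in each library. Myc (GRCm38.p6 chromosome 15, 61985341 to 61990361) lay at 51.7, 72.7 and 35.0 CPM in WT, 902 and 685 in line D1, 1645 in line D4, and 1345 and 1656 in line D5. Every VQ library exceeded every WT library (log2 fold change 4.67 ± 0.38 SE, adjusted p = 8.77e-05), and the share of these counts that came from human MYC was not tested. Nras (chromosome 3, 103058285 to 103067914) lay at 36.8, 36.4 and 36.2 CPM in WT, 45.5 and 41.6 in line D1, 59.1 in line D4, and 132 and 162 in line D5. D5 held the most, and the groups did not overlap (log2 fold change 1.27 ± 0.40, adjusted p = 0.0362). The Nras call was lost without any single WT library (adjusted p = 0.0933, 0.0940 and 0.104) or without D5 (0.0618). Counts per gene do not separate the mutant from the normal allele. In the MYC network list of 13 genes, 3 rose and 2 fell, against 17.3% and 15.1% of all genes, with a median of 0.05. Beside Myc the riser in all 3 lines was Mycn, its paralog, at 1.06, 1.11 and 0.285 CPM in WT and 2.17 to 11.4 CPM in VQ (3.27 ± 0.57, adjusted p = 0.00264). D1 replicate 2 was the lowest VQ library for Mycn and still lay above WT.

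Nearly all listed genes of the machinery that makes ribosomes rose. Of 45 genes for ribosomal RNA transcription and nucleolar ribosome assembly, 41 rose and 0 fell, against 17.3% and 15.1% of all genes, and 27 rose in all 3 lines, with a median of 1.71. Nop58, a core protein of the box C/D particles that modify ribosomal RNA, lay at 98.0, 92.0 and 72.3 CPM in WT, 297 and 318 in line D1, 325 in line D4, and 532 and 599 in line D5. All 5 VQ libraries lay above WT and those of D5 were highest (2.27 ± 0.26, adjusted p = 3.91e-04). Nhp2, of the H/ACA particles that guide pseudouridine formation, went from 13.5 to 21.6 CPM in WT to 75.6 to 209 CPM in VQ (2.90 ± 0.41, adjusted p = 0.00102). Wdr12, an assembly factor of the large ribosomal subunit, had its lines close together, at 62.7 to 97.6 CPM against 11.1 to 25.6 CPM (2.15 ± 0.34, adjusted p = 0.00178).

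Ribosomal proteins and the factors that run translation rose beside them. Of 46 cytosolic ribosomal protein genes tested, 44 rose and 35 rose in all 3 lines, with a median of 1.61 and 0 lower. Rpl18 lay at 15.2, 17.4 and 17.4 CPM in WT, 62.2 and 70.4 in line D1, 89.2 in line D4, and 69.9 and 77.0 in line D5 (2.26 ± 0.21, adjusted p = 1.43e-04). The groups did not overlap, and the same was true of Rpl27 (4.45 to 6.37 against 21.0 to 52.2 CPM) and Rpl19 (7.69 to 11.7 CPM against 26.4 CPM or more). Genes of this family have near-identical copies elsewhere in the genome, and their levels are uncertain because the handling of reads that match several places is not given. Among 26 translation factors 22 rose and 10 rose in all 3 lines (median 1.26). Eef1b2, the exchange subunit that reloads elongation factor 1A, lay at 338, 311 and 289 CPM in WT, 1009 and 1106 in line D1, 1958 in line D4, and 1579 and 1629.7 in line D5. The D1 libraries were the lowest of VQ and lay clear of WT (2.37 ± 0.22, adjusted p = 1.43e-04). Of 36 mitochondrial ribosomal proteins, 24 rose, only 7 of them in all 3 lines, with a median of 0.94. Mrpl12 was the most uneven of those named, at 21.1 to 26.8 CPM in WT, 58.4 to 74.9 CPM in D1 and D4, and 176 and 197 CPM in D5.

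Protein folding in the cytosol and in mitochondria followed the same direction. Of 22 genes of the CCT chaperonin, which folds actin and tubulin, and of the mitochondrial chaperones, 20 rose and 12 rose in all 3 lines (median 1.48). Cct2, a chaperonin subunit, lay at 173, 176 and 175 CPM in WT, 556 and 589 in line D1, 659.5 in line D4, and 622 and 657 in line D5. Both sets of libraries were tight and far apart (1.91 ± 0.13, adjusted p = 6.06e-05), and the lines did not pass the test of a difference among them (adjusted p = 0.375). Phb, a scaffold protein of the inner mitochondrial membrane, went from 5.31 to 9.40 CPM to 24.2 to 33.9 CPM (1.95 ± 0.30, adjusted p = 0.00143). Timm10, which escorts carrier proteins into mitochondria, went from 1.99 to 2.97 CPM to 8.18 to 13.7 CPM (2.33 ± 0.48, adjusted p = 0.00591).

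MYC binds the E-box CACGTG, so promoter windows were searched for these letters, which read the same on both strands. The windows are the 250 bases before each RefSeq start site (GRCm38.p6). The motif was in 10.2% of the windows of genes higher in all 3 lines, in 5.78% of those of genes lower in all 3 lines and in 8.38% of those of all genes tested (9501 of 11933 genes matched) and in 6.02% of all promoter windows of the reference. Of the 26 windows matched to nucleolar genes higher in all 3 lines, 0 held it. Named genes higher in all 3 lines that did hold it included the ribosomal protein gene Rpl19, the mitochondrial scaffold gene Phb, the lysosomal protease gene Ctsl and the RNA-binding protein gene Lin28b. Their windows are shown 5′ to 3′ along the gene, with the motif in capitals. They serve as examples, and other named risers may carry the motif as well. A match describes the letters only and is not evidence of binding.
Rpl19, chr11:98026460-98026709, plus strand: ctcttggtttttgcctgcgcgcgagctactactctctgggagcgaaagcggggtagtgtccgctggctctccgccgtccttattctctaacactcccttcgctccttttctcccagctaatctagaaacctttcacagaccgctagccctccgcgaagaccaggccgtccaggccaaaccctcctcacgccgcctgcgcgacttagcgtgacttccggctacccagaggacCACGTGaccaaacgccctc
Phb, chr11:95666707-95666956, plus strand: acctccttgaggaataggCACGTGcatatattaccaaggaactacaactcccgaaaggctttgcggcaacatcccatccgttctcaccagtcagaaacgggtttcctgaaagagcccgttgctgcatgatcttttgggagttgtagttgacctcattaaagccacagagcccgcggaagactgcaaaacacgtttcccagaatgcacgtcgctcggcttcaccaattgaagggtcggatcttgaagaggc
Ctsl, chr13:64370521-64370770, minus strand: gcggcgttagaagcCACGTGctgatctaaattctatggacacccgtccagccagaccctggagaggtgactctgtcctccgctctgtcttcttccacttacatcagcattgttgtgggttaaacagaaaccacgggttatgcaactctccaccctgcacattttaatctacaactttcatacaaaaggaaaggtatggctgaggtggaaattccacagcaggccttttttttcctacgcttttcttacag
Lin28b, chr10:45470202-45470451, minus strand: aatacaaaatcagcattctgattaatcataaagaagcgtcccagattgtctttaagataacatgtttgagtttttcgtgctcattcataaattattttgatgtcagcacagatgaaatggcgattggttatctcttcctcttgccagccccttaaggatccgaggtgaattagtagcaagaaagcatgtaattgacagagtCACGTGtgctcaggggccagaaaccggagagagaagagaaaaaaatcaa
The motif began 19 bases before the start site used for Rpl19 and 49 bases before that for Lin28b, but 232 and 236 bases before those for Phb and Ctsl. A gene can have several RefSeq start sites, and the windows shown were taken because they held the motif. RefSeq spans are 98022003 to 98030493 for Rpl19, 45376617 to 45486314 for Lin28b and 64361890 to 64370772 for Ctsl. The windows of these 3 genes lie inside the spans, so the start sites used are internal. The Phb window ends just before the span of its gene.

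Genes of energy and building-block metabolism rose in part. Of 40 respiratory chain and ATP synthase genes, 31 rose and 5 rose in all 3 lines (median 0.89), with smaller changes than in the ribosome lists. Atp5g3, which encodes the c ring of ATP synthase, lay at 52.0, 43.0 and 50.4 CPM in WT, 98.8 and 106 in line D1, 135 in line D4, and 134 and 129.7 in line D5. No VQ library came down to the WT range (1.41 ± 0.19, adjusted p = 8.11e-04). Without WT replicate 3, 20 of these genes rose. Of 27 genes of the tricarboxylic acid cycle and glutamine use, 11 rose and 0 fell (median 0.72), 17 without D1, and Dlat, a core enzyme of pyruvate dehydrogenase, was the riser in all 3 lines (1.32 ± 0.19, adjusted p = 0.00122). Of 31 nucleotide synthesis enzymes 16 rose and 2 fell, 4 of them rising in all 3 lines (median 1.16). The lines spread widely here, with medians of 0.72 in line D1, 0.23 in line D4 and 1.81 in line D5 against WT (log2 CPM), and 9, 10 and 9 genes rose without WT replicate 1, 2 or 3. Ctps, which makes CTP, went from 14.8 to 19.1 CPM in WT to 46.9 to 97.9 CPM in VQ (2.15 ± 0.30, adjusted p = 9.01e-04).

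Serine and lipid enzymes rose and fell by member. Of 26 genes of serine, one-carbon and amino acid metabolism, 13 rose and 1 fell, 6 rising in all 3 lines (median 1.18), and 8 rose without WT replicate 2 and 7 without replicate 3. Psat1 (chromosome 19, 15905123 to 15925059), an enzyme of serine synthesis, lay at 47.4, 26.7 and 22.2 CPM in WT, 168 and 183 in line D1, 210.0 in line D4, and 170.1 and 215 in line D5. Its VQ lines were among the closest of the rises of at least 4-fold in every line (2.66 ± 0.26, adjusted p = 1.78e-04). Shmt1, which moves a carbon unit from serine to folate, lay at 4.45 to 6.02 CPM in WT, 58.7 and 76.6 in line D1, 30.2 in line D4, and 182 and 181 in line D5 (4.21 ± 0.70, adjusted p = 0.00225). D4 was lowest and D5 highest, and the lines differed (adjusted p = 7.16e-05). Of 26 cholesterol and fatty acid synthesis genes, 7 rose (4 without any single WT library) and 1 fell, with a median of 0.58. Scd1, the desaturase that makes oleic acid, lay at 36.5, 129 and 130.1 CPM in WT and at 5.11, 0.650, 0.560, 0 and 0.254 CPM in the VQ libraries. It fell (-6.57 ± 0.99, adjusted p = 0.00143), whereas Elovl6, which lengthens fatty acids before desaturation, rose from 4.84 to 9.91 CPM to 18.0 to 134 CPM (3.23 ± 0.69, adjusted p = 0.00699). Sqle, an early enzyme of the sterol branch, rose from 12.6 to 15.6 CPM to 45.0 to 121 CPM (2.47 ± 0.35, adjusted p = 9.70e-04).

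Of 23 glycolysis and glucose uptake genes, 7 rose and 1 fell, against 17.3% and 15.1% of all genes, with 4 rising in all 3 lines (median 0.72). The lactate transporters moved in opposite directions. Slc16a1 lay at 24.4, 51.9 and 21.1 CPM in WT, 78.1 and 82.6 in line D1, 79.8 in line D4, and 350.2 and 412 in line D5 (2.57 ± 0.66, adjusted p = 0.0153). D5 was highest, and the call was lost without WT replicate 1 (adjusted p = 0.0594) or 3 (0.0651). Slc16a3 lay at 7.97 to 43.4 CPM in WT, highest in replicate 2, and at 0.140 to 2.42 CPM in VQ, with no overlap (-4.41 ± 1.03, adjusted p = 0.0101). Ldha, which makes lactate from pyruvate, rose from 38.2 to 73.1 CPM to 133 to 346 CPM (2.00 ± 0.37, adjusted p = 0.00368).

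**Figure D2:**
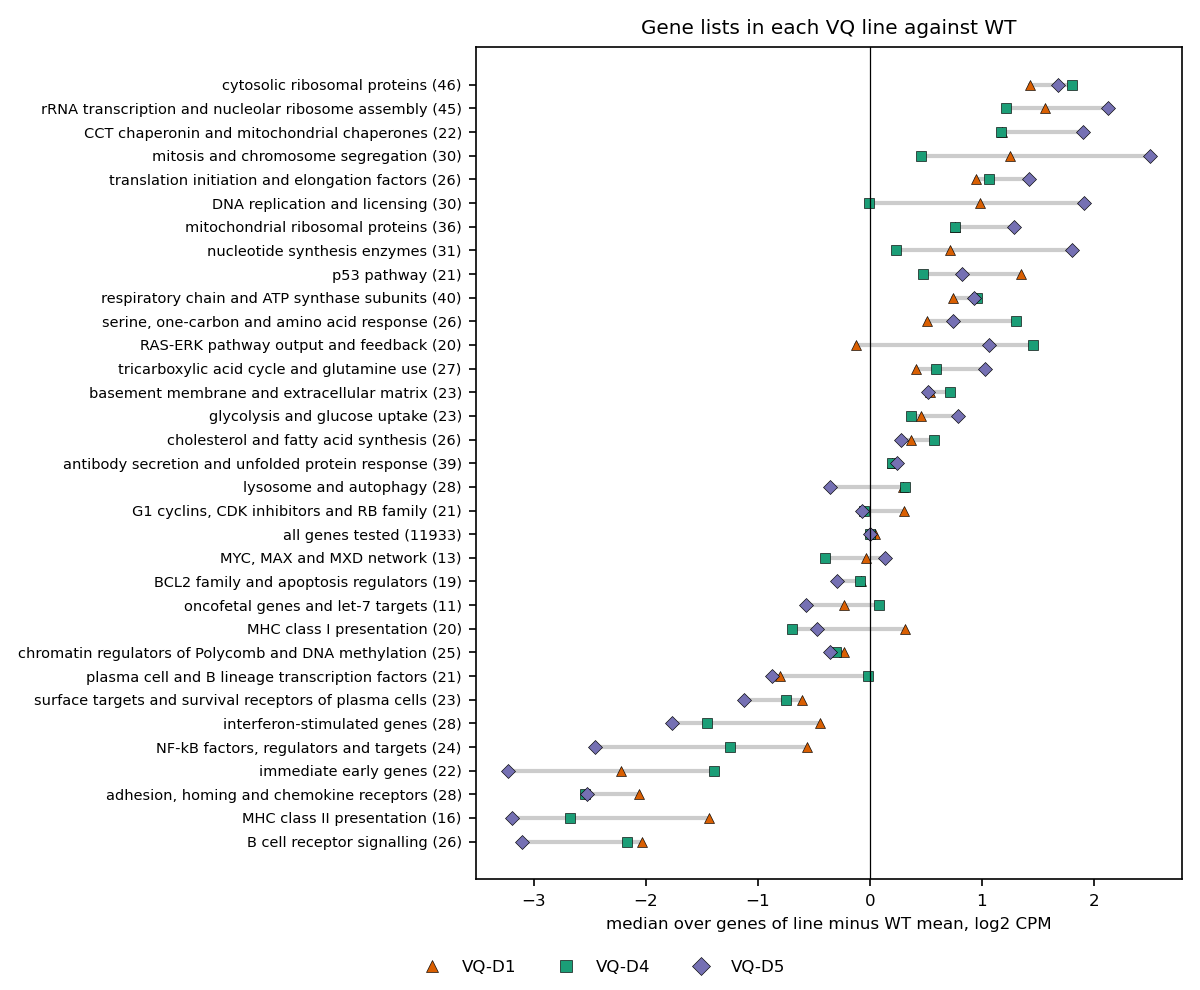
Median over the tested genes of each list (number in brackets) of line minus WT mean, in log2 CPM, for D1, D4 and D5, with a bar between the lowest and highest line. The nucleolar and cytosolic ribosome lists lie between 1.22 and 2.13 in every line. Mitochondrial ribosomal proteins are at 0.76 in line D1, 0.76 in line D4 and 1.285 in line D5. The DNA replication list is at 0.99 in line D1, 0.00 in line D4 and 1.91 in line D5. The B cell receptor list lies at -2.04 to -3.11.

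Cell division genes depended on the line. Of 30 mitosis genes 13 rose and 5 rose in all 3 lines (median 1.61), and of 30 DNA replication genes 10 rose and 3 rose in all 3 lines (median 1.21), with 0 lower in both lists. Cdc20, an activator of the anaphase-promoting complex, lay at 8.85, 24.5 and 8.54 CPM in WT, 39.8 and 40.8 in line D1, 40.0 in line D4, and 226 and 232 in line D5. Cdc20 was called higher in all 3 lines (2.98 ± 0.76, adjusted p = 0.0149). WT replicate 2, which also had the most neutrophil and erythroid RNA, was the highest WT library, and the part of other cells was not tested. Line medians against WT were 1.25 in line D1, 0.46 in line D4 and 2.50 in line D5 for mitosis genes (log2 CPM). Without D4, 23 mitosis and 22 replication genes rose, and without D5 only 1 and 6. Without WT replicate 1 or 3 the counts were 0 mitosis and 2 replication genes, and a fit of VQ lines and WT alone gave 0 and 2. Mcm10, a replication initiation factor, was higher in all lines at 41.7 to 184 CPM against 14.0 to 31.2 CPM (2.35 ± 0.54, adjusted p = 0.00955).

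Of 21 G1 cyclin, CDK inhibitor and RB family genes, 4 rose and 5 fell (median 0.57), 2 rising and 3 falling in all 3 lines, against 17.3% and 15.1% of all genes called and 6.38% and 9.91% in all 3 lines. Cdkn1a, the CDK inhibitor p21 and a target of p53, lay at 7.79, 4.82 and 1.99 CPM in WT, 65.4 and 83.9 in line D1, 23.7 in line D4, and 22.7 and 18.6 in line D5. D1 was highest and all VQ libraries exceeded WT (3.15 ± 0.70, adjusted p = 0.00806). Cdk6, a G1 kinase, lay at 95.6, 87.9 and 59.2 CPM in WT, 14.5 and 2.28 in line D1, 0.560 in line D4, and 13.7 and 18.3 in line D5 (-3.34 ± 0.84, adjusted p = 0.0145). Its gene lies on chromosome 5, whose genes were low as a whole in D1 and D4, as given below. Of 21 p53 pathway genes 7 rose and 2 fell, against the same 17.3% and 15.1% of all genes (median 0.82, or 0.75 with bounds). Phlda3, a p53-induced repressor of AKT, had 2 counts over all WT libraries (0.354, 0.371 and 0 CPM) and lay at 17.2, 15.5, 6.58, 14.2 and 14.2 CPM in VQ (adjusted p = 0.00222). Plk2, another p53 target, fell from 4.96, 13.7 and 0.569 CPM to at most 1.08 CPM (-4.35 ± 1.23, adjusted p = 0.0256), and the call was lost without D4 (adjusted p = 0.0529) or D1 replicate 2 (0.0580).

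Some output and feedback genes of the RAS and ERK pathway rose and others fell. Of 20 listed genes 5 rose and 3 fell, against the 17.3% and 15.1% of all genes, with a median of 0.69 (8 rose without D1). Line medians of the list were -0.13 in line D1, 1.45 in line D4 and 1.065 in line D5 (log2 CPM). The 5 risers, Spry4, Spred2, Etv4, Etv5 and Phlda1, did so in all 3 lines. Among the 3 that fell, Il1rl1 did so in all 3 lines. It lay at 2.83, 13.4 and 3.70 CPM in WT and at most at 0.538 CPM in VQ (-5.23 ± 1.09, adjusted p = 0.00716). Spry4 (chromosome 18, 38586247 to 38601347), an inhibitor of receptor signalling that ERK induces, lay at 0, 1.48 and 0.854 CPM in WT, 96.9 and 69.9 in line D1, 34.6 in line D4, and 193 and 227 in line D5. The groups lay far apart, and D5 was highest (7.16 ± 0.97, adjusted p = 8.69e-04). Etv4, a transcription factor downstream of ERK, had 2 counts over the WT libraries and lay at 15.3, 6.83, 13.7, 34.8 and 43.5 CPM in VQ (adjusted p = 0.00205). Both stayed low in the transplanted MYC line tVk12653, Spry4 at 0 and 0.363 CPM and Etv4 at 0.231 and 0.726 CPM. VQ exceeded that line for both genes (adjusted p = 0.00524 and 0.0184).

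Immediate early genes, which growth signals and handling induce within minutes, went the other way. Of 22 listed genes 12 fell and 0 rose, all 12 in every line, with a median of -2.20. Egr3 lay at 115, 35.6 and 15.7 CPM in WT and at 0.269, 0.108, 0.560, 0 and 0 CPM in the VQ libraries (-7.74 ± 1.05, adjusted p = 0.00117). The WT libraries themselves spread widely, with replicate 1 highest, and 7 genes of the list fell without that library or without D1 replicate 2. Cd69 (chromosome 6, 129267324 to 129275375), an activation marker that retains lymphocytes in tissue, lay at 326, 158 and 221 CPM in WT, 5.38 and 0.434 in line D1, 1.26 in line D4, and 0.791 and 1.27 in line D5. No VQ library came near WT (-7.28 ± 0.36, adjusted p = 1.87e-05). Fos, Jun, Junb, Egr2, Nr4a1 and Dusp1 were among the others that fell in all lines.

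**Figure D3:**
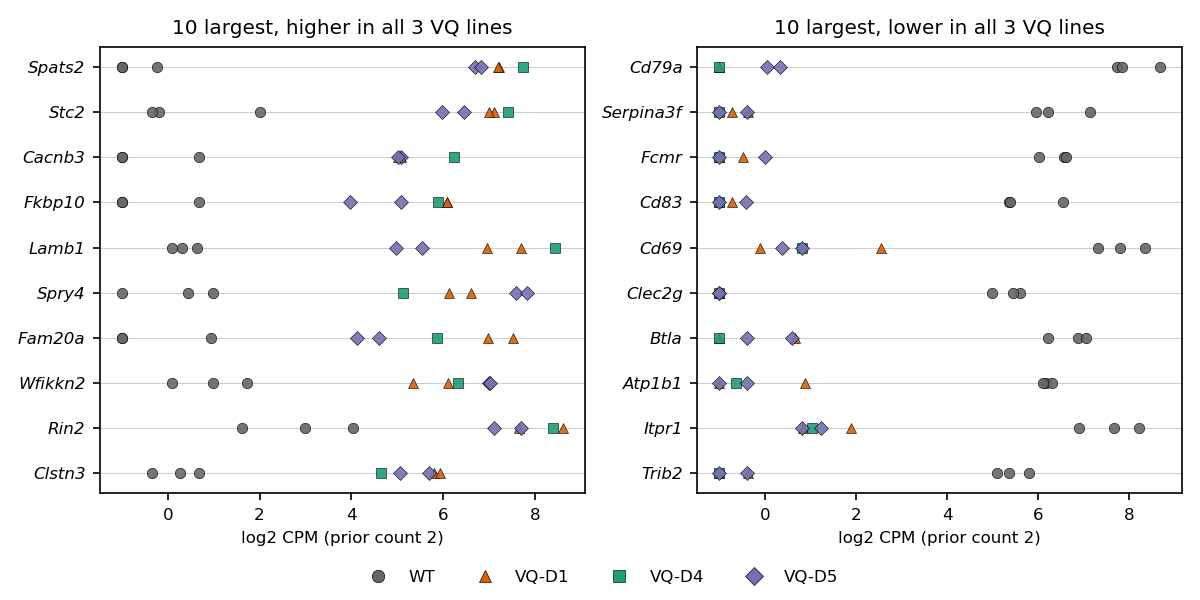
Log2 CPM (prior count 2) of the 10 genes with the largest rise and the 10 with the largest fall among those changed in all 3 lines, 1 point per library for 3 WT and 5 VQ libraries. The genes were chosen by a rule that sets the lines apart from WT, and the WT and VQ points do not overlap. For example, Rin2 lies at 2.56 to 16.0 CPM in WT and 138 to 389.8 CPM in VQ.

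Genes of the B cell receptor pathway were lower in the tumours. Of 26 B cell receptor signalling genes 16 fell and 1 rose, 14 falling in all 3 lines (median -2.26). Cd79a (chromosome 7, 24897497 to 24901858), a signalling chain of the receptor, lay at 212, 230.0 and 409 CPM in WT, 0 in both D1 libraries and D4, and 0.527 and 0.763 CPM in D5 (-10.31 ± 0.79, adjusted p = 8.55e-05). Its partner chain Cd79b did not pass the test, at 224, 202 and 263 CPM in WT, 178 and 169.7 in line D1, 208 in line D4, and 71.5 and 66.1 in line D5 (-0.57 ± 0.32, adjusted p = 0.191). D4 overlapped WT for Cd79b and D5 lay lowest. The Src-family kinase gene Blk had no count in any VQ library and lay at 37.2, 57.5 and 58.1 CPM in WT, at least 44.9-fold lower in VQ (floor of 3 counts in each library). B cell markers summed to 623 to 1017 CPM in WT and 73.5 to 219 CPM in VQ, a fall in which residual B cells were not tested.

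A part of the lineage transcription factors fell. Of 21 genes 7 fell and 0 rose (median -0.45), 6 in all 3 lines. Irf8, which acts in B cells and myeloid cells, lay at 141, 168 and 133 CPM in WT, 2.69 and 1.84 in line D1, 0 in line D4, and 0.527 and 2.03 in line D5 (-6.81 ± 0.79, adjusted p = 4.39e-04). Ebf1 and Pax5, which set B cell identity, fell as well, Ebf1 from 37.5 to 72.0 CPM to 0.254 to 3.50 CPM (-5.39 ± 0.69, adjusted p = 6.76e-04). Pax5 was uneven in WT, at 49.9, 174 and 17.7 CPM, with replicate 2 highest, and lay at 1.12 to 6.33 CPM in VQ (-4.69 ± 1.00, adjusted p = 0.00690). In V, Pax5 was also low, at 2.48, 2.85 and 10.1 CPM, and VQ did not pass the test against V (adjusted p = 0.573). Xbp1, which drives secretion, did not pass (-0.28 ± 0.29, adjusted p = 0.492).

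A part of the MHC class II genes, which present antigen to T cells, was lower. Of 16 class II genes 7 fell, all in every line, and 0 rose (median -2.29). In a fit of VQ lines and WT alone 3 passed. H2-Ab1, a class II beta chain, lay at 185, 322 and 225 CPM in WT, 3.77 and 10.5 in line D1, 1.54 in line D4, and 1.58 and 1.27 in line D5 (-5.84 ± 0.71, adjusted p = 5.42e-04). The VQ libraries were all far under WT, with D1 the highest of them, and dendritic cell and B cell markers moved the same way. Of 20 class I genes 1 fell and none did so in all 3 lines (median -0.31). B2m, the light chain of class I, lay at 3694, 2456 and 3097 CPM in WT, 2283 and 2471 in line D1, 1201 in line D4, and 478 and 414 in line D5 (-1.13 ± 0.47, adjusted p = 0.0908). D1 overlapped WT while D5 was lowest, and the lines differed (adjusted p = 2.58e-06).

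Secretory genes of plasma cells did not move as a block. Of 39 genes for antibody secretion and the unfolded protein response, 9 rose and 5 fell (median 0.27), and 4 rose without WT replicate 2. In all 3 lines 3 rose and 1 fell. Over all genes 17.3% rose and 15.1% fell, 6.38% and 9.91% in all 3 lines. The faller was Jchain (chromosome 5, 88519809 to 88527897), the joining chain of secreted IgA and IgM, at 37248, 33759.6 and 64552 CPM in WT, 696 and 939 in line D1, 44.4 in line D4, and 1502 and 720.0 in line D5. D4 held the least (-5.98 ± 1.01, adjusted p = 0.00244). Fkbp11, a peptidyl-prolyl isomerase of secretory cells, lay at 65.8, 50.5 and 65.5 CPM in WT, 269 and 232 in line D1, 799.7 in line D4, and 611 and 646 in line D5 (3.26 ± 0.37, adjusted p = 3.91e-04). Ssr2, a subunit of the translocon-associated complex of the endoplasmic reticulum, rose most in D5, from 104 to 115 CPM in WT to 247 and 318 in line D1, 402 in line D4, and 1430.5 and 1473 in line D5 (2.79 ± 0.55, adjusted p = 0.00472). Both exceeded tVk12653 too (adjusted p = 0.00752 and 0.0455).

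More surface proteins and survival receptors of plasma cells fell than rose. Of 23 genes 9 fell and 2 rose, 8 and 2 of them in all 3 lines (median -0.52). Cd38, an ectoenzyme and drug target in myeloma, lay at 23.4, 20.8 and 26.2 CPM in WT, 0.538 and 0 in line D1, 0 in line D4, and 2.37 and 0.763 in line D5 (-5.28 ± 0.90, adjusted p = 0.00324). It lies on chromosome 5. Lag3, an inhibitory receptor, fell from 27.1 to 70.4 CPM to 0.527 to 2.69 CPM (-5.08 ± 0.61, adjusted p = 4.92e-04), and Cd180, a Toll-like receptor relative, from 45.0 to 84.6 CPM to 0.759 to 2.64 CPM (-5.47 ± 0.52, adjusted p = 2.74e-04). Cd320 and Igf1r were the genes that rose.

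Some NF-kB and interferon genes were lower, to a different extent in each line. Of 24 NF-kB factors, regulators and targets 11 fell and 0 rose, 4 in all 3 lines (median -1.45). Line medians were -0.57 in line D1, -1.25 in line D4 and -2.45 in line D5 (log2 CPM), and 7, 6 and 6 genes fell without WT replicate 1, 2 or 3. Map3k14 (NIK, chromosome 11, 103219764 to 103267401), the kinase that starts the non-canonical pathway, lay at 24.8, 33.4 and 22.5 CPM in WT, 9.96 and 7.37 in line D1, 5.46 in line D4, and 8.18 and 6.36 in line D5. It fell in VQ (-1.87 ± 0.23, adjusted p = 5.27e-04) but lay at 593 and 523 CPM in tVk12653, where VQ was lower (-6.25, adjusted p = 6.26e-06). Of 28 interferon-stimulated genes 6 fell and 1 rose, against 15.1% and 17.3% of all genes, with 4 falling in all 3 lines (median -1.21). The count of 6 falling was 14 without D1, 11 without D1 replicate 2 and 3 without WT replicate 2. It was 10 by DESeq2 and 1 in a fit of VQ lines and WT alone. Irf7, which amplifies interferon production, fell from 26.3 to 48.1 CPM to 2.11 to 15.1 CPM (-1.92 ± 0.49, adjusted p = 0.0146), a call lost without WT replicate 1 (adjusted p = 0.0529).

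Of 19 genes of the BCL2 family and related regulators 2 rose and 5 fell, 2 falling in all 3 lines, near the 9.91% of all genes (median -0.02), and 2 fell without WT replicate 1 and 3 without WT replicate 2, WT replicate 3 or D4. Bcl2, which blocks apoptosis, lay at 190.4, 154 and 199 CPM in WT, 101 and 44.6 in line D1, 8.12 in line D4, and 0.791 and 1.02 in line D5 (-2.88 ± 0.98, adjusted p = 0.0481). D5 held almost none while D1 kept part of the WT level, and the call was lost without any single WT library (adjusted p = 0.0832 to 0.0971), D4 (0.0974) or D1 replicate 2 (0.136).

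Some adhesion and homing receptors fell, and some basement membrane genes rose. Of 28 adhesion, homing and chemokine receptor genes 13 fell and 2 rose, the 13 in all 3 lines (median -2.09). Ccr9, a homing receptor for the gut, lay at 27.6, 36.7 and 60.6 CPM in WT, 0.538 and 0.325 in line D1, 0.700 in line D4, and 0.527 and 0 in line D5 (-6.43 ± 0.52, adjusted p = 8.77e-05). All VQ libraries were under 1 CPM. Of 23 basement membrane and extracellular matrix genes 10 rose and 4 fell, 7 and 4 in all 3 lines (median 1.64), with 6 rising without WT replicate 2 or 3. Fn1, Mmp9, Nid1 and Col4a2 were the genes that fell, and 2 fell without D1 replicate 2. Lamb1 (chromosome 12, 31265146 to 31329644), a laminin beta chain, lay at 1.06, 0.742 and 0.569 CPM in WT, 207 and 124 in line D1, 346 in line D4, and 46.2 and 31.0 in line D5 (7.82 ± 0.97, adjusted p = 8.29e-04). D4 was highest and D5 lowest. Its relative Lamb2 rose too, from 1.71 to 9.20 CPM to 52.1 to 139 CPM (4.33 ± 0.77, adjusted p = 0.00305).

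Of 11 oncofetal genes and let-7 targets 3 rose and 3 fell (median -0.27). Lin28b, which blocks maturation of let-7 microRNAs, had 1 count over all WT libraries and lay at 77.0 and 90.3 CPM in line D1, 51.1 in line D4, and 3.69 and 6.61 in line D5 (adjusted p = 0.00216). Its paralog Lin28a went the other way, from 4.25, 9.65 and 3.70 CPM in WT to 1.88 and 0 in D1 and 0 in D4 and D5 (-4.54 ± 1.15, adjusted p = 0.0162). That call was lost without WT replicate 2 (adjusted p = 0.0523) or without D1 replicate 2 (0.0877). Of 25 Polycomb and DNA methylation genes 3 rose and 3 fell (median -0.18), no more than the 17.3% and 15.1% of all genes. Dnmt3b, a de novo DNA methyltransferase, rose from 5.19 to 10.3 CPM to 14.5 to 23.5 CPM (1.28 ± 0.33, adjusted p = 0.0160), a call lost without WT replicate 2 (adjusted p = 0.0518).

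Lysosomal proteases split by family member. Of 28 lysosome and autophagy genes 7 rose and 7 fell (median 0.18), against 17.3% and 15.1% of all genes. In all 3 lines 2 rose and 2 fell, against 6.38% and 9.91%. The 7 rising were 4 without WT replicate 2, WT replicate 3 or D1 and 11 without D5, and the 7 falling were 4 without WT replicate 3. Ctsz, a carboxypeptidase, lay at 173, 130.2 and 137 CPM in WT, 663 and 765 in line D1, 634 in line D4, and 654 and 669 in line D5 (2.27 ± 0.18, adjusted p = 8.77e-05). Ctsl, an endopeptidase, lay at 35.4, 39.0 and 42.1 CPM in WT and 174, 143, 176, 208 and 133 CPM in VQ (2.16 ± 0.19, adjusted p = 1.23e-04). Neither passed the test among lines (adjusted p = 0.728 and 0.824). Ctsh, an aminopeptidase, fell from 46.4, 94.6 and 75.4 CPM to 0.420 to 2.69 CPM (-5.88 ± 0.62, adjusted p = 2.83e-04). In the 9 pathway lists above with 0 genes lower, 0 of 302 genes had an unadjusted p under 0.05 in that direction by edgeR and DESeq2 called 0, and in the 5 with 0 genes higher, 4 of 103 and 0.

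The 10 largest rises, ranked by the smallest difference of any line from WT, were Spats2, Stc2, Cacnb3, Fkbp10, Lamb1, Spry4, Fam20a, Wfikkn2, Rin2 and Clstn3. Stc2 (chromosome 11, 31359441 to 31370061), the secreted glycoprotein stanniocalcin-2, lay at 3.54, 0.371 and 0.285 CPM in WT, 137 and 128 in line D1, 169 in line D4, and 62.8 and 87.2 in line D5 (6.55 ± 0.72, adjusted p = 3.49e-04). Rin2 (chromosome 2, 145771727 to 145887616), which activates RAB5 and has a RAS-binding region, lay at 7.43, 16.0 and 2.56 CPM in WT, 389.8 and 202 in line D1, 335 in line D4, and 138 and 207 in line D5 (4.95 ± 0.59, adjusted p = 4.79e-04). In both cases no library of VQ came near WT. Clstn3, a calsyntenin of the cell surface, rose from 0.285 to 1.11 CPM to 24.5 to 60.6 CPM (5.97 ± 0.50, adjusted p = 1.07e-04). Wfikkn2, a secreted binder of TGF-beta family ligands, rose from 0.569 to 2.83 CPM to 40.1 to 129.9 CPM (5.80 ± 0.73, adjusted p = 6.14e-04). Spats2, Cacnb3 and Fkbp10 had 1 to 3 counts over all WT libraries and lay at 103 to 214, 32.0 to 74.6 and 15.3 to 67.4 CPM in VQ. Fam20a, a pseudokinase of the secretory pathway, had 4 counts in WT and lay at 184 and 125 CPM in D1 but 16.9 and 23.6 CPM in D5.

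The 10 largest falls, ranked in the same way, were Cd79a, Serpina3f, Fcmr, Cd83, Cd69, Clec2g, Btla, Atp1b1, Itpr1 and Trib2. Itpr1 (chromosome 6, 108213083 to 108551116), a calcium release channel, lay at 119, 201 and 296 CPM in WT, 3.23 and 1.30 in line D1, 1.54 in line D4, and 1.85 and 1.27 in line D5 (-6.86 ± 0.43, adjusted p = 4.98e-05). Btla, an inhibitory receptor, lay at 74.0, 118 and 133 CPM in WT, and at 0 in D4 and D1 replicate 2 and 0.264 to 1.08 CPM in the other VQ libraries (-8.20 ± 0.68, adjusted p = 1.43e-04). Atp1b1, the beta subunit of the sodium pump, fell from 68.6 to 78.7 CPM to 0 to 1.35 CPM (-8.02 ± 0.56, adjusted p = 6.06e-05). All were far under WT in each library. Fcmr, the Fc receptor for IgM, fell from 64.9 to 97.2 CPM to 0 to 0.508 CPM with 4 counts in all VQ libraries. The C-type lectin gene Clec2g had no count in VQ and lay at 48.5, 31.2 and 43.3 CPM in WT, at least 37.8-fold lower. Serpina3f, Trib2 and Cd83 had 2 or 3 counts over the VQ libraries and lay at 61.6 to 139.8, 34.0 to 54.9 and 40.8 to 93.4 CPM in WT. Over all genes, 13 of those higher in all 3 lines had no count in WT and 19 of those lower had none in VQ. Of the lower genes 42 lie on X, where 374 genes were tested, against 9.91% lower in all 3 lines over all genes. On Y all 4 genes tested were lower in all 3 lines. Of the higher genes 17 lie on X and 0 on Y. The sex of the mice is not labelled, and its part was not tested.

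How alike the lines were was asked with an F test among D1, D4 and D5, in a fit where D4, with 1 library, is assumed to vary like the other groups. Of 12152 genes 6528 (53.7%) differed among lines. Of the genes higher in all 3 lines 353 of 761 (46.4%) differed, and of the lower ones 411 of 1183 (34.7%). The median distance between the lowest and the highest line was 0.86 and 1.36 on the log2 CPM scale. Against WT in the same fit, D1 had 2999 genes higher (24.7%) and 3477 lower (28.6%), D4 2443 (20.1%) and 2724 (22.4%), and D5 3387 (27.9%) and 3986 (32.8%). The WT libraries are shared by all of these comparisons, so no overlap is drawn from them.

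By rule, the lines were compared on genes at least 4-fold from WT in every line, at 5 log2 CPM or more in the higher arm. The 4 per direction on which the lines were closest were Sema4g, Psat1, Bpnt1 and Ctsl among rises and Clec2g, Acsl1, Rrad and Rab8b among falls. Sema4g, a semaphorin, lay at 12.7, 4.08 and 11.7 CPM in WT and 61.6, 55.7, 66.7, 48.8 and 68.6 CPM in VQ (2.74 ± 0.40, adjusted p = 0.00120). Bpnt1, a phosphatase of sulfur and nucleotide metabolism, lay at 22.7, 13.4 and 15.1 CPM in WT and 70.7 to 89.1 CPM in VQ (2.30 ± 0.25, adjusted p = 2.92e-04). Rab8b, a GTPase of vesicle transport, lay at 168, 166 and 152 CPM in WT and 36.1, 32.0, 32.1, 35.6 and 31.0 CPM in VQ (-2.24 ± 0.14, adjusted p = 4.38e-05). The VQ libraries of these genes sat within a narrow band that did not touch WT. Acsl1, which activates long-chain fatty acids, fell to 11.9 to 13.7 CPM from 43.9 to 96.8 CPM (-2.25 ± 0.32, adjusted p = 0.00109), and Rrad, a RAS-related GTPase, to 3.25 to 4.31 CPM from 28.2 to 48.8 CPM (-3.39 ± 0.26, adjusted p = 8.55e-05).

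The genes on which the lines lay farthest apart were taken by the same rule, from those at least 4-fold from WT in all 3 lines. They were Eppk1, Cp, Lamb1 and Fam20a among rises and Hdac9, Gas7, Bcar3 and Fmnl1 among falls. Cp (chromosome 3, 19956933 to 20009750), the copper-carrying ferroxidase ceruloplasmin, lay at 35.4, 21.5 and 16.8 CPM in WT, 2083 and 3228 in line D1, 148 in line D4, and 204 and 127 in line D5 (5.52 ± 1.22, adjusted p = 0.00816). Cp lay at 274, 280 and 80.5 CPM in V, a range that holds D4 and D5, and at 541 and 385 CPM in tVk12653. VQ did not pass the test against V or tVk12653 for Cp (adjusted p = 0.113 and 0.486). Eppk1, the cytoskeletal linker epiplakin on chromosome 15, lay at 11.3, 2.6 and 3.13 CPM in WT, 11.6 and 27.5 in line D1, 812 in line D4, and 117 and 127 in line D5 (5.84 ± 1.31, adjusted p = 0.00860). Each of these was led by a single line. Hdac9 (chromosome 12, 34047580 to 34917095), a class IIa histone deacetylase, lay at 233, 198 and 339 CPM in WT, 0.269 and 0.108 in line D1, 0 in line D4, and 40.1 and 27.0 in line D5. Gas7 lay at 189, 169.9 and 209.8 CPM in WT, 48.5 and 26.1 in line D1, 0 in line D4, and 3.69 and 4.07 in line D5. Both fell in each line (adjusted p = 0.0426 and 0.0250), and both calls were lost without any single WT library (adjusted p = 0.0744 to 0.0917 for Hdac9 and 0.0523 to 0.0586 for Gas7), without D5 replicate 2 for Hdac9 (0.0526) and without D1 replicate 2 for Gas7 (0.0515). Bcar3 and Fmnl1, at 162 to 252 and 141 to 308 CPM in WT, had their lowest line in D1 (1.35 and 0.217 CPM) and in D4 (0.840 CPM).

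**Figure D4:**
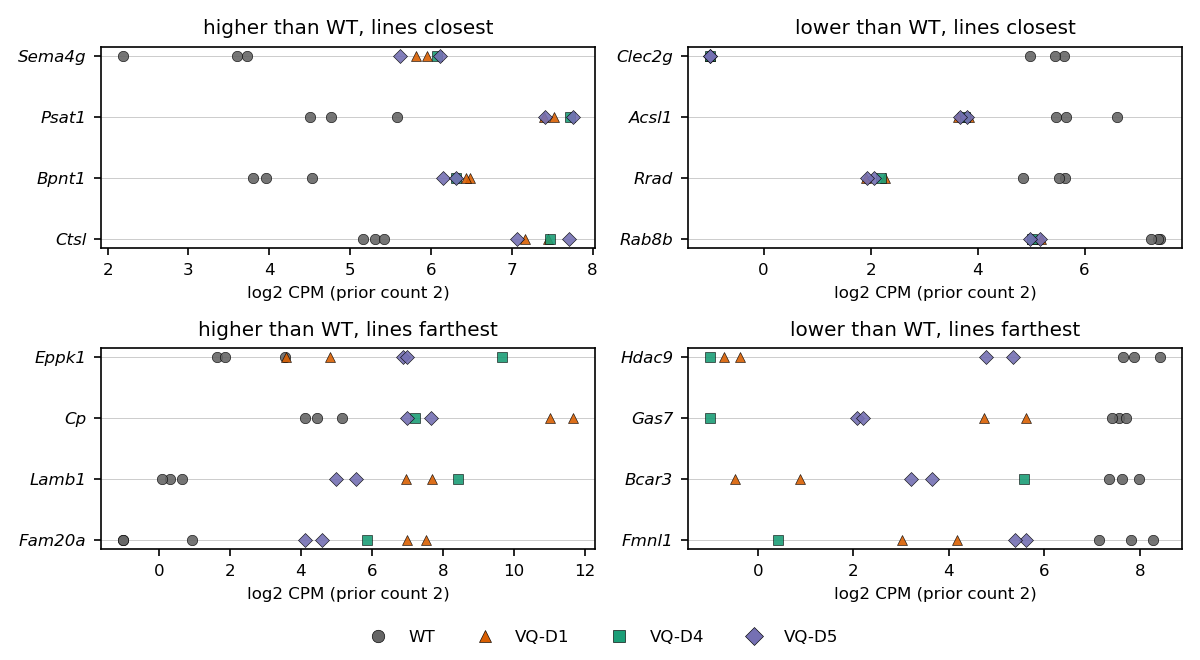
Log2 CPM (prior count 2) per library of the genes whose lines lay closest and farthest apart, for 3 WT and 5 VQ libraries. The 4 genes per panel were taken from those at least 4-fold from WT in all 3 lines. Ctsl shows VQ libraries between 133 and 208 CPM, whereas Cp shows D1 at 2083 and 3228 CPM apart from 127 to 204 CPM in the other lines.

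The genes of some chromosomes lay low or high as a whole in single lines. Over genes with a WT mean of at least 3 log2 CPM, the median difference from WT of the 587 genes of chromosome 5, minus that of all genes, was -0.81 in D1 and -0.88 in D4 but 0.05 in D5 (log2 CPM). Chromosome 8 lay at -0.79 in D1, chromosome 15 at 0.74 in D4 and chromosome 3 at 0.52 in D5. Both recipients of a line gave like values, and autosomes of single WT libraries stayed within -0.03 to 0.05 and those of V within -0.10 to 0.12. Such shifts were also present in tVk12653, whose libraries had chromosome 8 at -0.73 and -0.76, chromosome 14 at -0.75 and -0.76 and chromosome 7 at 0.75 and 0.72. Jchain, Cd38 and Cdk6 lie on chromosome 5, Irf8, Acsl1 and Rrad on 8, Myc, Eppk1, Spats2, Cacnb3, Fkbp11 and Sqle on 15, and Nras, Slc16a1, Elovl6, Ssr2, Cp and Bcar3 on 3. With the genes of these 4 chromosomes left out, an alternative chosen after seeing the data, 593 genes were higher and 910 lower in all 3 lines of 9488 tested. The part of chromosome copy number in any result was not tested.

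**Figure D5:**
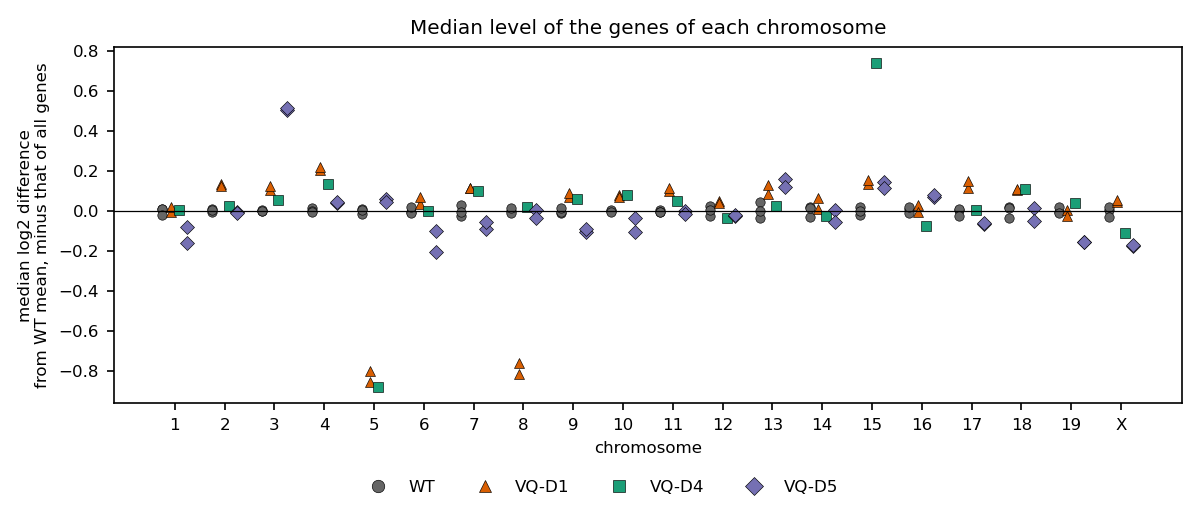
Median log2 CPM difference from the WT mean over the genes of each chromosome with a WT mean of at least 3 log2 CPM, minus the median over all genes, 1 point per library for 3 WT and 5 VQ libraries. Chromosome 5 is low in D1 and D4, chromosome 8 in D1, while chromosome 15 is high in D4 and chromosome 3 in D5, at 0.50 and 0.51 in its 2 libraries.

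Groups V and tVk12653 show which of these levels also occur with MYC and no labelled Nras allele. Mutations that tVk12653 may have gained were not tested. Against V, which shares the transgene and Cre, VQ had 1865 genes higher (15.6%) and 1474 lower (12.4%). Of the 761 genes higher than WT in all 3 lines 667 were higher than V as well, and of the 1183 lower ones 860 were lower. V and WT serve here as controls of the same VQ lines, so these counts are no independent support. Some named genes changed in all 3 lines against WT did not pass against V. They included Pax5, Plk2, Slc16a3 and Cdk6 among falls (adjusted p = 0.573, 0.578, 0.0825 and 0.0737). Among rises they included Cp and Mycn (adjusted p = 0.113 and 0.0685). Against tVk12653, a MYC tumour line that was also transplanted, VQ had 712 genes higher (5.97%) and 500 lower (4.19%). Of the genes higher than WT in all 3 lines 108 were higher and 11 lower than tVk12653, and of the lower genes 38 were higher and 125 lower. DESeq2 gave 165, 26, 80 and 189 for these counts. The spread of tVk12653 comes from 2 recipients of 1 line.

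Several of the largest rises were not shared by tVk12653. Stc2 lay at 0.231 and 0 CPM there, Lamb1 at 0 in both libraries and Rin2 at 21.5 and 12.0 CPM, against 62.8 to 169, 31.0 to 346 and 138 to 389.8 CPM in VQ (adjusted p = 0.00146, 0.00448 and 0.00760). In V these genes lay at most at 1.95, 0.992 and 5.46 CPM. Psat1 was at 57.2 and 51.6 CPM in tVk12653 and at 168 to 215 CPM in VQ (1.89, adjusted p = 0.00581). Cct2 at 271 and 290.1 CPM (1.22, adjusted p = 0.00191) and Nop58 at 173 and 178 CPM (1.26, adjusted p = 0.0251) were also lower in tVk12653, whose Myc level was 8012 and 8220.5 CPM. Other rises were as high there: Spats2 lay at 222 and 207 CPM, Lin28b at 56.3 and 65.7 CPM and Clstn3 at 35.4 and 35.2 CPM, and none of them passed the test against VQ (adjusted p = 0.735, 0.837 and 0.631). Among falls, Laptm5, a lysosomal protein of blood cells, lay at 290.2 to 395 CPM in WT, 27.0 to 99.4 CPM in VQ and 4.4 and 7.99 CPM in tVk12653, so that VQ was higher than that line (3.10, adjusted p = 0.00538). Plag1, a transcription factor of the oncofetal list, lay at 6.26 to 11.7 CPM in WT and 0.264 to 0.763 CPM in VQ but 31.7 and 28.7 CPM in tVk12653 (-5.84, adjusted p = 1.38e-04).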

How the data were processed

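The authors deposited unnormalised counts of reads for each gene symbol, made from STAR 2.6.1d alignments to GRCm38.p6, per the submitters' processing notes. For the counting tool, annotation, strand setting and multiply aligned reads, the sources used here give nothing. Hence overlapping and antisense genes cannot be told apart. RNA came from a stranded total RNA kit for small inputs, per the labels' protocols. Positions, symbols (22000 of 22997 matched) and promoter windows are from RefSeq GRCm38.p6.

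Low genes were removed by filterByExpr (at least 10 counts, total of at least 15). After TMM scaling, edgeR 4.0.16 (R 4.3.3) gave robust quasi-likelihood tests, whose p-values were adjusted by Benjamini and Hochberg over every gene tested and called at 0.05. The fit held 11 units, with recipients of a VQ line summed. A fit of the 13 libraries gave the F test among lines (2 degrees of freedom), each line against WT and CPM per library. Fold changes are log2 with standard errors from the F statistic. A floor of 3 counts bounds folds of genes with no count in an arm. The tests were checked on simulated data.

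The members, lists and rules were chosen with earlier results of these data known. Named genes are Myc, Nras, Sdc1 and Ptprc, and the 10 largest changes per direction in all 3 lines. The 4 closest and 4 farthest between lines per direction were added, of genes at least 4-fold from WT in every line. For the largest, closest and farthest the higher arm averaged 5 log2 CPM or more. Predicted, ribosomal protein, histone, mitochondrial, small RNA, sex-linked and marker genes were not eligible there. Up to 3 per pathway list and 2 per marker list were named as well. Members named without values were chosen after their calls were seen. Alternatives were relative log expression factors, no filter or a minimum of 30 counts, DESeq2 1.42.0, VQ and WT alone, 13 libraries with or without a replicate block, a fold threshold, stricter line rules, removal of abundant or sex-linked genes, and each library or line left out. Some genes that this rule names are not reported here.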

Additional observations from a re-analysis of the deposited data

Results flagged for a closer look

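Of 137 named genes, 70 differed among D1, D4 and D5 by the F test, and the following 18 of them lay at least 3 log2 CPM units apart between the highest and the lowest line. Among genes changed in all 3 lines, 167 met both conditions. Distances are in log2 CPM with a prior count of 2. Genes for which the 3 lines lay on the same side of WT were Hdac9 (6.39 apart, lowest in D4), Gas7 (6.31, lowest in D4), Bcar3 (5.58, lowest in D1), Bcl2 (5.50, lowest in D5), Fmnl1 (5.25, lowest in D4), Eppk1 (5.06, highest in D4), Jchain (4.72, lowest in D4), Cp (4.34, highest in D1), Cdk6 (4.15, lowest in D4), Lin28b (3.92, lowest in D5) and Lamb1 (3.05, highest in D4). The same held for the neutrophil, eosinophil and B cell markers S100a9 (3.21, highest in D1), Prg2 (3.84, highest in D1) and Ms4a1 (3.66, highest in D4), and for Tnfaip2 (3.01, highest in D1). Ptprc lay 6.97 apart, with D1 at 272 and 248 CPM and D4 and D5 at 1.68 to 6.61 CPM. For 2 marker genes lines lay on both sides of the WT mean: the eosinophil receptor gene Il5ra (5.23 apart), at 47.0 to 117 CPM in WT, 8.34 and 5.10 in line D1, 48.5 in line D4, and 263 and 207 in line D5, and the endothelial gene Pecam1 (3.45 apart), at 52.0 to 70.5 CPM in WT, 401 and 147 in line D1, 20.6 in line D4, and 43.8 and 35.3 in line D5. Of the 7 basophil, eosinophil and mast cell markers tested 5 fell in VQ, and of the 6 stromal and endothelial ones 2.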

How the results depend on the processing

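A fit of VQ lines and WT alone called 1064 genes higher and 976 lower, and a 2-fold threshold inside the test (glmTreat) 426 and 791. Requiring 4-fold in every line left 141 and 705 genes, and calling each line on its own gave 1202 higher and 1533 lower. Leaving out 1 library or line gave 1140 to 2367 genes higher (1140 without WT replicate 3, 1358 without WT replicate 1), and 1285 to 2327 lower. With 1 library left out, 583 to 743 genes were higher and 931 to 1218 lower in all 3 lines. With a line left out, 889 to 1115 were higher and 1374 to 1572 lower in both lines that remained. DESeq2 moved the counts against tVk12653 to 165, 26, 80 and 189. The cause of these moves was not tested. Replicate numbers did not pair the samples (correlations of same-numbered WT and D1 or D5 deviations of -0.128 to 0.0312). With the replicate number as a block, 1596 genes were higher and 1695 lower, 632 and 1092 in all 3 lines. Relative log expression factors moved the median of all genes from 0.08 to 0.01. The Sdc1 log2 fold change, which did not pass the test, turned negative under several settings, at -0.0103 (relative log expression factors and DESeq2 alike), -0.16 (recipients separate), -0.10 (replicate block) and -0.13 (WT replicate 2 and D1 replicate 1 out), and ranged from -0.41 to 0.38 when single libraries or lines were left out. Il5ra ranged from -1.38 without D5 to 1.11 and Pecam1 from -0.97 without D1 to 1.40. Genes with few counts in an arm are limited by depth to levels or bounds.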
